A study of Mus musculus with 12 samples.

Results

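The 45 genes described here encode DNA repair proteins and are grouped by the pathway they serve: 6 of homologous recombination, 4 kinases that signal damage, 5 of non-homologous end joining, 4 of mismatch repair, 9 of base excision repair, 10 of nucleotide excision repair, 5 of the Fanconi anemia pathway and 2 RecQ helicases. They were chosen by gene name, with earlier results of these data known, and each was measured by the probe of its symbol with the highest mean over all mice, so that all 45 members stand among 19057 genes with 1 probe each. Spleen RNA of 12 male C57BL/6J mice was hybridized to Illumina MouseWG-6 v2.0 BeadChips, with a separate array for each mouse and 4 mice per diet. The HFD-ED mice received a high-fat diet with 15 g fat per 100 g, of which 10 g was coconut oil, 3 g corn oil and 2 g a purified oil of the marine fatty acids EPA and DHA. The HFD-CO mice received the same total fat and coconut oil with 5 g corn oil and no EPA or DHA, and both high-fat diets held 1 g cholesterol per 100 g. The control mice received a low-fat diet with 5 g fat per 100 g, 2.5 g each from corn oil and coconut oil, without cholesterol. All mice arrived at 6 weeks of age, acclimatized for 3 weeks and were fed for 8 weeks, and the 4 mice of each diet were picked from a larger group by body weight and plasma lipids. The question put to these genes was whether their levels differed between the diets, pathway by pathway.

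Each repair pathway reads its own kind of lesion. Homologous recombination copies a sister chromatid to mend a double-strand break and is used in dividing cells, end joining ligates the ends directly, and in lymphocytes it also closes the breaks of antigen receptor rearrangement. Mismatch repair corrects replication errors, base excision repair removes single damaged or deaminated bases, nucleotide excision repair cuts out bulky and ultraviolet lesions, and Fanconi proteins clear crosslinks. The spleen holds resting lymphocytes, macrophages and, in the mouse, dividing red cell precursors. Several genes of recombination and of the Fanconi pathway are expressed mainly in cells that copy their DNA.

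Promoters are printed for the 4 members with the smallest unadjusted p between HFD-ED and control, among those described mouse by mouse, that have an entry in RefSeq, to show the sequence in front of genes that lay in opposite directions between the diets. Each runs 5′ to 3′ on the strand of the gene over 300 bases, ending 50 bases past the start site (RefSeq, GRCm38.p6). Capitals mark TTTNNCGC, the E2F-type motif of genes used in S phase, CCAAT, the NF-Y-type box, and TTTGAA, the cell cycle homology element, each searched on both strands, so that ATTGG and TTCAAA are matches on the other strand. No overlap between motifs occurs in these 4 promoters. Ercc5 lies at chr1:44147494-44147793 on the plus strand, Mutyh at chr4:116807484-116807783 on the plus strand (1 of its 2 listed promoters), Ung at chr5:114130185-114130484 on the plus strand and Fanca at chr8:123318527-123318826 on the minus strand.
Ercc5: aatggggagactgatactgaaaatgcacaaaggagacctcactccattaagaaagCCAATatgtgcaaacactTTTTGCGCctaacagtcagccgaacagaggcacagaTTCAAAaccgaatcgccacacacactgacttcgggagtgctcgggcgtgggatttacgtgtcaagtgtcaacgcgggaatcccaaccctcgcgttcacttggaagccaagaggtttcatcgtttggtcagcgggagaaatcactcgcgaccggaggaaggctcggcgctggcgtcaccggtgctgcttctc
Mutyh: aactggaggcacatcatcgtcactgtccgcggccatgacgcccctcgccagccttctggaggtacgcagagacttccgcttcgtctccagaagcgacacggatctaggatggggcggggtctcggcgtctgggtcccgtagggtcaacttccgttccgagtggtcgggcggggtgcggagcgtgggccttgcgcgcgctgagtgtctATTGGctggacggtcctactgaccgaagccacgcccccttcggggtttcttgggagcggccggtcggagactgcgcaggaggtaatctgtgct
Ung: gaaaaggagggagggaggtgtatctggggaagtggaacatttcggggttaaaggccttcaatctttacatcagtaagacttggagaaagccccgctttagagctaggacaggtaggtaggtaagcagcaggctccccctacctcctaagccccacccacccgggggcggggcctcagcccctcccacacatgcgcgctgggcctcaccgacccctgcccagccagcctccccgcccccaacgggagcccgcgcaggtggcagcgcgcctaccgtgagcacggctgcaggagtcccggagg
Fanca: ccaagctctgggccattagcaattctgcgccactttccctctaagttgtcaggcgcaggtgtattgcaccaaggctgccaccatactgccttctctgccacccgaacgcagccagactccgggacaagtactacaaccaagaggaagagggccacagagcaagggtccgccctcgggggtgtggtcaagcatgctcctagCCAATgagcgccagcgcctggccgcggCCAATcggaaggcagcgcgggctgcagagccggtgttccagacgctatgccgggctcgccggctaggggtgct

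The Ercc5 promoter held all 3 motifs, once each, the Mutyh promoter held 1 CCAAT box, the Fanca promoter held 2, and none of the letters searched was found in the Ung window. RefSeq listed 39 promoters for 35 of the 45 members. A member was counted if any of its promoters held the motif, whereas the shares of all promoters are per promoter. TTTNNCGC was found in 8 of these 35 (22.9%), namely Brca2, Chek2, Ercc5, Fancg, Msh3, Msh6, Rad51c and Xrcc6, against 5.17% of all 32851 promoters. CCAAT was found in 19 of 35 (54.3%), against 37.4% of all promoters. TTTGAA was found in 1 of 35 (2.86%), that of Ercc5, against 17.9% of all promoters. These matches are a description of letters and were not tested.

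On the deposited log2 scale the members ranged in mean level from 7.06 for Ercc6 to 10.98 for Parp1. Of the 45, 19 lay under 7.5, where 75.2% of all 45281 probes lay and where the transformation of the values compresses differences. No detection p-value was used, so some of these genes may not have been detected. Parp1, Parp2, Msh6 and Xrcc6 lay above 10, and 35 of the 45 genes had more than 1 probe. Within a diet, pairs of arrays had r between 0.971 and 0.995 across probes, which are not independent replicates. The tissue label and titles name spleen whereas a protocol text names skeletal muscle: of 9 skeletal muscle genes measured, 1 had a mean of 7.5 or more, against 8 of 9 B-cell genes, 6 of 9 T-cell genes and 6 of 7 red pulp macrophage genes. Pancreatic enzyme genes lay 4.95 above their 12-mouse mean in HFD-CO replicate 4 and 1.11 above it in HFD-CO replicate 1. In whole spleen RNA fewer cells of a type and less RNA per cell cannot be told apart.

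No DNA repair gene passed limma's test in any comparison after adjustment over all probes. Between HFD-ED and control the smallest adjusted p of a member was 0.193 (Ercc5), between HFD-ED and HFD-CO it was 0.345 (Atm), and between HFD-CO and control every member stood at an adjusted p that rounds to 1.0. Over all probes 0%, 0.00221% and 0% passed an adjusted p of 0.05 in these comparisons, 1 probe in all, and over the 3 diets together the smallest adjusted p of a member was 0.321, where 0 of all probes passed. At an unadjusted p under 0.05, 7 members lay higher and 5 lower on HFD-ED than on control (15.6% and 11.1% of the members), where the shares of all genes were 5.69% and 7.55%. Of genes with a mean of 7.5 or more, 10.3% and 14.8% reached it, and 26 members are of that kind. Against HFD-CO, 5 members lay higher and 5 lower on HFD-ED, with 6.07% and 5.82% of all genes and 10.9% and 10.7% of the brighter genes, and for HFD-CO against control 1 lay higher and 3 lower, with 2.12% and 2.88% of all genes and 2.27% and 4.05% of the brighter ones. Over the 3 diets together 13 members (28.9%) reached an unadjusted p under 0.05, against 11.3% of all genes. The comparisons share mice, so their values are given side by side and are not independent.

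**Figure D1:**
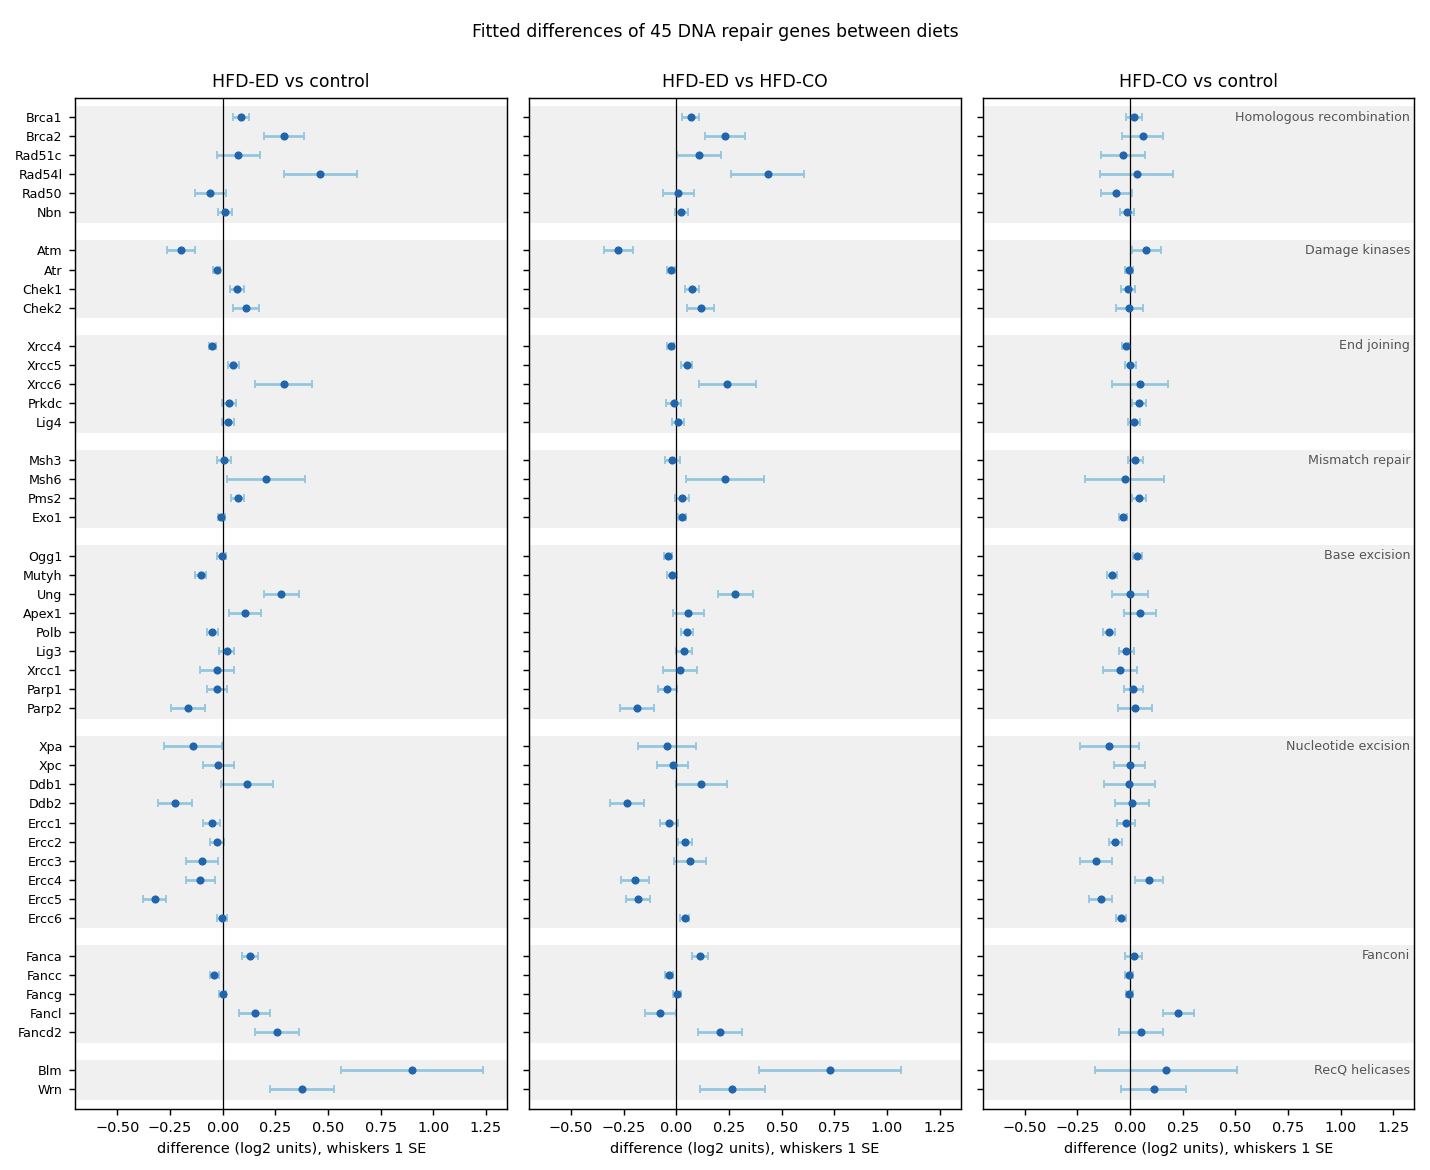
Fitted difference of each of the 45 DNA repair genes, in log2 units with whiskers of 1 SE, in a panel for each of the 3 comparisons, ordered by pathway. Blm lies farthest to the right at 0.90 against control and Ercc5 farthest to the left at -0.32, and the points of HFD-CO against control run from -0.16 to 0.23.

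Taken by their differences, the pathways did not lie the same way. Compared with control, 23 of all 45 members were higher on HFD-ED, at a median difference of 0.0058. Of all genes 45.9% were higher (median -0.0036), and of those with a mean of 7.5 or more 41.0% were (median -0.032). Homologous recombination had 5 of 6 members higher on HFD-ED than on control (median 0.080), the Fanconi pathway 3 of 5 (median 0.13) and the RecQ helicases 2 of 2 (median 0.64). End joining had 4 of 5 higher (median 0.028), mismatch repair 3 of 4 (median 0.038) and the damage kinases 2 of 4 (median 0.019). Base excision repair had 3 of 9 higher (median -0.027), and nucleotide excision repair 1 of 10 (median -0.076). Against HFD-CO 28 of 45 members were higher on HFD-ED (median 0.026), as 47.0% of all genes and 42.8% of those at 7.5 or more were. The counts were 6 of 6 for homologous recombination, 3 of 5 for the Fanconi pathway and 2 of 2 for the RecQ helicases. They were 3 of 5 for end joining, 3 of 4 for mismatch repair and 2 of 4 for the damage kinases. Base excision repair had 5 of 9 and nucleotide excision repair 4 of 10. On HFD-CO against control nucleotide excision repair had 2 of 10 members higher (median -0.030) and homologous recombination 3 of 6 (median 0.0028). Of all 45 members 20 were higher there (median -0.0027), as 47.8% of all genes and 45.2% of those at 7.5 or more were. These counts are a description, and no pathway was set against another by a test.

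Among the genes of homologous recombination, Brca2 and Rad54l lay higher on HFD-ED in 3 of the 4 mice. Brca2, the breast cancer susceptibility protein that acts on resected DNA, had 7.40, 7.67, 7.97 and 7.68 in HFD-ED replicates 1 to 4, 7.49, 7.43, 7.48 and 7.39 in HFD-CO replicates 1 to 4, and 7.38, 7.36, 7.31 and 7.51 in control replicates 1 to 4, and all values by mouse below keep this order. HFD-ED replicates 2, 3 and 4 lay above every other mouse and HFD-ED replicate 1 lay among them, so that the groups overlapped. Its difference was 0.29 from control (SE 0.095, limma adjusted p = 0.369) and 0.23 from HFD-CO (adjusted p = 0.503), and that from HFD-CO was 0.14 without HFD-ED replicate 3. Rad54l, a motor protein that moves along DNA during strand pairing, had 7.76, 8.14, 8.56 and 8.32 in HFD-ED mice, 7.85, 7.63, 8.04 and 7.53 in HFD-CO mice, and 7.55, 7.53, 7.89 and 7.97 in control mice. The same 3 HFD-ED mice were the highest of 12, and HFD-ED replicate 1 lay below 4 mice of the other diets. The difference of Rad54l was 0.46 from control (SE 0.17, limma adjusted p = 0.411), a ratio of 1.38, and 0.43 from HFD-CO (adjusted p = 0.498). Brca1, the ubiquitin ligase subunit that steers breaks into recombination, was dim at 7.22 and lay higher in every HFD-ED mouse than in every control mouse, by 0.086, in a class that holds 1.99% of all genes. Rad51c, which acts in strand exchange, differed from control by 0.074, Rad50 by -0.058 and Nbn by 0.010, and Rad50 and Nbn belong to the complex that senses broken ends.

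The kinases that signal damage split. Atm, the kinase switched on by double-strand breaks, had 9.59, 9.26, 9.34 and 9.48 in HFD-ED mice, 9.71, 9.79, 9.65 and 9.63 in HFD-CO mice, and 9.63, 9.67, 9.52 and 9.66 in control mice. Every HFD-ED mouse lay below every HFD-CO mouse, as 2.61% of all genes and 4.15% of those at 7.5 or more did, whereas HFD-ED replicate 1 overlapped the control mice. The difference of Atm was -0.28 from HFD-CO (SE 0.068, limma adjusted p = 0.345) and -0.20 from control (adjusted p = 0.381), and HFD-CO and control differed by 0.077. Chek1, the checkpoint kinase downstream of Atr, had 7.10, 7.19, 7.23 and 7.22 in HFD-ED mice, 7.12, 7.06, 7.16 and 7.08 in HFD-CO mice, and 7.08, 7.08, 7.14 and 7.16 in control mice. It is dim, and HFD-ED replicates 2, 3 and 4 were again the highest of 12, at differences of 0.067 from control (SE 0.033, limma adjusted p = 0.527) and 0.076 from HFD-CO (adjusted p = 0.525). Chek2, downstream of Atm, differed from control by 0.11, and Atr, which answers to single-stranded DNA at stalled forks, by -0.030.

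In end joining, Xrcc6 was the single bright member. Xrcc6, the Ku70 subunit of the ring that slides on broken ends, had 10.29, 10.42, 10.98 and 10.5 in HFD-ED mice, 10.16, 10.31, 10.44 and 10.31 in HFD-CO mice, and 10.16, 10.10, 10.40 and 10.38 in control mice. HFD-ED replicate 3 stood 0.49 above the next mouse, HFD-ED replicate 4 also lay above every mouse of the other diets, replicate 2 lay above every control mouse, and replicate 1 lay among both groups. The difference was 0.29 from control (SE 0.13, limma adjusted p = 0.502) and 0.14 without HFD-ED replicate 3. Xrcc4, the partner of ligase IV, had 7.09, 7.10, 7.11 and 7.10 in HFD-ED mice, 7.10, 7.12, 7.14 and 7.16 in HFD-CO mice, and 7.14, 7.12, 7.16 and 7.18 in control mice. Every HFD-ED mouse lay below every control mouse, in a class of 3.49% of all genes, by a difference of -0.050 (SE 0.017, limma adjusted p = 0.374) close to the lower end of the scale. Xrcc5, which encodes the other Ku subunit, differed from control by 0.050, the catalytic subunit of the DNA-dependent kinase Prkdc by 0.028, and ligase IV, Lig4, by 0.024.

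Mismatch repair showed no member past an unadjusted p of 0.05 at the probe chosen. Msh6, which reads base mispairs, had 10.51, 10.10, 10.98 and 10.55 in HFD-ED mice, 10.22, 10.35, 10.57 and 10.07 in HFD-CO mice, and 10.11, 10.09, 10.53 and 10.59 in control mice. HFD-ED replicate 3 was the highest and HFD-ED replicate 2 lay among the lowest, so the spread within the diet was wider than the difference of 0.21 from control (SE 0.19, limma adjusted p = 0.781). That difference was 0.057 without HFD-ED replicate 3, 0.35 without HFD-ED replicate 2, 0.13 without control replicate 1 and 0.12 without control replicate 2. Pms2, the subunit that nicks the new strand, had 7.60, 7.66, 7.57 and 7.55 in HFD-ED mice, 7.53, 7.57, 7.58 and 7.60 in HFD-CO mice, and 7.47, 7.49, 7.53 and 7.61 in control mice. The groups of Pms2 overlapped, with a difference of 0.070 from control (SE 0.032, limma adjusted p = 0.499). Msh3, which reads larger loops, differed from control by 0.0058 and the exonuclease Exo1 by -0.0064, both dim.

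Base excision repair held members that lay in opposite directions. Ung, the glycosylase that removes uracil from DNA, also at the immunoglobulin genes of B cells that switch class, had 8.32, 8.13, 8.40 and 8.30 in HFD-ED mice, 7.89, 8.05, 8.02 and 8.08 in HFD-CO mice, and 7.84, 7.88, 8.12 and 8.19 in control mice. Every HFD-ED mouse lay above every HFD-CO mouse, as 1.93% of all genes and 2.65% of those at 7.5 or more did, and HFD-ED replicate 2 overlapped the control mice. The difference of Ung was 0.28 from control (SE 0.084, limma adjusted p = 0.344) and 0.28 from HFD-CO (adjusted p = 0.436), a ratio of 1.21 in both. Mutyh, the glycosylase that takes out adenine opposite oxidized guanine, had 7.36, 7.26, 7.29 and 7.31 in HFD-ED mice, 7.33, 7.32, 7.29 and 7.38 in HFD-CO mice, and 7.40, 7.41, 7.40 and 7.45 in control mice. Every mouse of both high-fat diets lay below every control mouse, as 3.49% of all genes did on HFD-ED and 1.85% on HFD-CO. The HFD-ED and HFD-CO mice overlapped each other. The difference of Mutyh from control was -0.11 on HFD-ED (SE 0.025, limma adjusted p = 0.252) and -0.085 on HFD-CO (adjusted p of 1.0), on a dim probe.

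Polb, the polymerase that fills the gap left by the excised base, had 7.56, 7.53, 7.53 and 7.55 in HFD-ED mice, 7.43, 7.54, 7.51 and 7.49 in HFD-CO mice, and 7.54, 7.65, 7.58 and 7.60 in control mice. Every HFD-CO mouse lay below every control mouse, by -0.10 (SE 0.027), and 1.85% of all genes and 2.31% of those at 7.5 or more lay so. Parp2, one of the enzymes that sense strand breaks and make poly(ADP-ribose), differed by -0.19 from HFD-CO (SE 0.080, limma adjusted p = 0.516) and by -0.16 from control. Parp1, the other such sensor and the brightest member, differed from control by -0.027, the scaffold Xrcc1 by -0.028 and ligase III, Lig3, by 0.018. The 8-oxoguanine glycosylase Ogg1 differed by -0.0058 and the abasic site endonuclease Apex1 by 0.11.

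Nucleotide excision repair, the largest group, was the pathway with the most members lower on HFD-ED, 9 of 10 against control. Of genes with a mean of 7.5 or more, 4138 of 7014 lay lower. At an unadjusted p under 0.05 in limma 2 of the 10 lay lower, Ercc5 and Ddb2, as 14.8% of those brighter genes did. Ercc5, the nuclease that cuts 3′ of the lesion, had 8.68, 8.78, 8.70 and 8.75 in HFD-ED mice, 8.77, 8.93, 8.87 and 9.07 in HFD-CO mice, and 9.07, 9.0, 9.11 and 9.01 in control mice. Every HFD-ED mouse lay below every control mouse, with a gap of 0.22 between the groups, as 6.05% of genes at 7.5 or more did, and the HFD-CO mice lay between and overlapped both. Ercc5 had a mean of 8.73 ± 0.048 on HFD-ED, 8.91 ± 0.13 on HFD-CO and 9.05 ± 0.051 on control (SD, n = 4 mice each). The difference was -0.32 from control (SE 0.056, limma adjusted p = 0.193), a ratio of 0.799, and -0.18 from HFD-CO (adjusted p = 0.441), while HFD-CO differed from control by -0.14. Without HFD-CO replicate 1 the last 2 were -0.23 and -0.092, and without HFD-CO replicate 4 they were -0.13 and -0.195. HFD-CO replicate 1 overlapped the HFD-ED mice and HFD-CO replicate 4 the control mice. Pancreatic enzyme genes lay high in both of these arrays, and their part was not tested.

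Ddb2, the subunit of the complex that binds ultraviolet damage, had 8.45, 8.31, 8.10 and 8.40 in HFD-ED mice, 8.49, 8.51, 8.47 and 8.72 in HFD-CO mice, and 8.50, 8.45, 8.63 and 8.59 in control mice. All 4 HFD-ED mice lay below all mice of both other diets, HFD-ED replicate 1 by a margin of only 0.0017 to control replicate 2. Against control 3.49% of all genes and 6.05% of those at 7.5 or more lay so, and against HFD-CO 2.61% and 4.15%. The difference of Ddb2 was -0.23 from control (SE 0.080, limma adjusted p = 0.395) and -0.23 from HFD-CO (adjusted p = 0.464). Ddb1, its partner and an adaptor of ubiquitin ligases, was the member that lay higher, by 0.12 from control. Ercc4, the nuclease that cuts 5′ of the lesion, differed by -0.20 from HFD-CO (SE 0.068, limma adjusted p = 0.468) and by -0.11 from control, and its partner Ercc1 by -0.054 from control. The damage verifier Xpa differed from control by -0.14, the TFIIH translocase Ercc3 by -0.099, the TFIIH helicase Ercc2 by -0.028, the damage sensor Xpc by -0.020 and the transcription-coupled repair gene Ercc6, the dimmest member, by -0.0027.

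**Figure D2:**
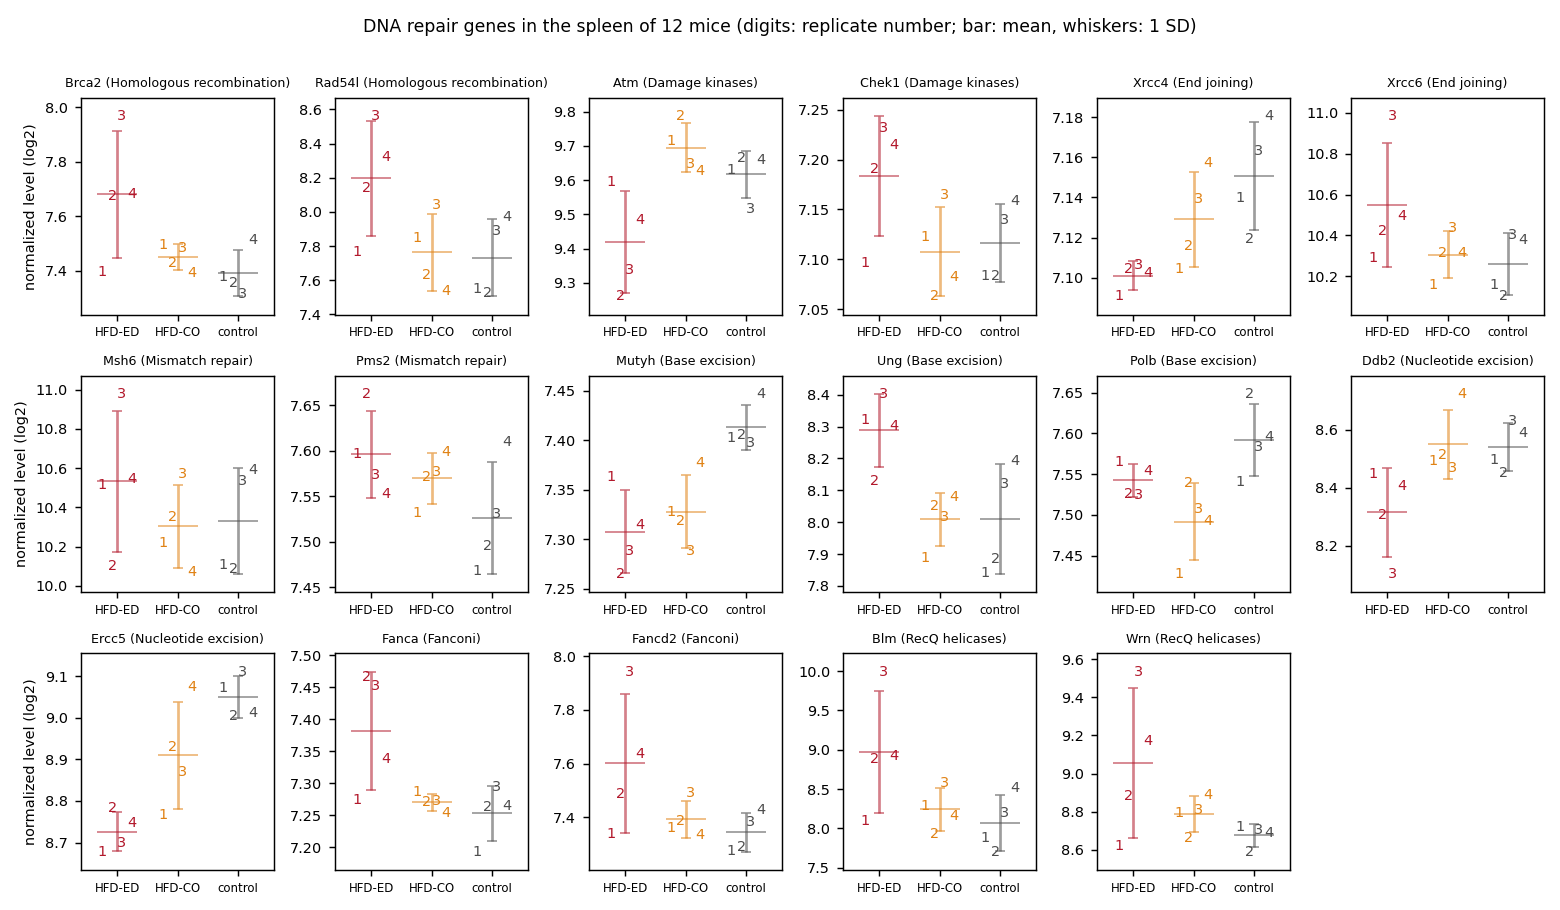
Normalized log2 level of 17 DNA repair genes in each mouse, by diet with HFD-ED at the left, and a separate vertical axis for each gene. Digits are replicate numbers, horizontal bars the mean and whiskers 1 SD; in Ercc5 the HFD-ED mice reach at most 8.78 and the control mice lie at 9.0 or more, and in Blm HFD-ED replicate 3 stands at 9.99.

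In the Fanconi pathway, Fanca and Fancd2 lay higher on HFD-ED at their chosen probes, both dim at means of 7.30 and 7.45. Fanca, a subunit of the core complex, had 7.27, 7.47, 7.45 and 7.34 in HFD-ED mice, 7.29, 7.27, 7.27 and 7.25 in HFD-CO mice, and 7.19, 7.26, 7.29 and 7.26 in control mice. HFD-ED replicates 2, 3 and 4 lay above all other mice, with a difference of 0.13 from control (SE 0.040, limma adjusted p = 0.344) and 0.11 from HFD-CO (adjusted p = 0.473). At its other probe, of mean 7.06, Fanca differed by 0.011 from control and -0.0016 from HFD-CO (limma unadjusted p = 0.593 and 0.938). Fancd2, the protein ubiquitinated by that complex at crosslinks, had 7.34, 7.49, 7.94 and 7.63 in HFD-ED mice, 7.36, 7.39, 7.49 and 7.34 in HFD-CO mice, and 7.27, 7.29, 7.38 and 7.43 in control mice. HFD-ED replicate 3 was the highest, replicate 2 was level with HFD-CO replicate 3, and HFD-ED replicate 1 overlapped both diets. The difference of Fancd2 was 0.26 from control (SE 0.10, limma adjusted p = 0.440) and 0.14 without HFD-ED replicate 3. At its next probe, also dim, it was 0.20 from control. Fancl, the ubiquitin ligase of the core complex, was the member with the widest difference between HFD-CO and control, 0.23 (SE 0.073, adjusted p of 1.0), with every HFD-CO mouse above every control mouse, as 1.46% of all genes and 1.23% of those at 7.5 or more were. The core subunits Fancc and Fancg differed between HFD-ED and control by -0.040 and -0.0012.

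Both RecQ helicases among the members lay higher on HFD-ED, and Blm had the widest difference of all members. Blm, which dissolves joined DNA molecules, had 8.09, 8.88, 9.99 and 8.92 in HFD-ED mice, 8.29, 7.93, 8.58 and 8.16 in HFD-CO mice, and 7.88, 7.70, 8.20 and 8.51 in control mice. HFD-ED replicates 2, 3 and 4 lay above all other mice, replicate 3 by the most, and replicate 1 lay in the middle of the other diets. Blm had a mean of 8.97 ± 0.78 on HFD-ED, 8.24 ± 0.27 on HFD-CO and 8.07 ± 0.36 on control (SD, n = 4 mice each), a difference of 0.90 from control (SE 0.34, limma adjusted p = 0.410), or a ratio of 1.86. Without HFD-ED replicate 3 the difference of Blm was 0.56 and without HFD-ED replicate 1 it was 1.19. Wrn, the helicase with an exonuclease, had 8.62, 8.88, 9.54 and 9.17 in HFD-ED mice, 8.79, 8.66, 8.81 and 8.89 in HFD-CO mice, and 8.72, 8.59, 8.71 and 8.69 in control mice. HFD-ED replicates 3 and 4 lay above all other mice, replicate 2 was level with HFD-CO replicate 4, and the difference from control was 0.38 (SE 0.15, limma adjusted p = 0.442) and 0.22 without HFD-ED replicate 3.

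In several pathways the HFD-ED mice differed among themselves. HFD-ED replicate 3 was the highest mouse for 13 of 45 members (28.9%), against 13.4% of all genes and 20.7% of genes with a mean of 7.5 or more. It was the lowest for 5 members (11.1%), against 15.6% of all genes and 27.0% of the brighter ones. HFD-ED replicate 1 was the highest for 2 members (4.44%), against 7.24% of all genes. The members of homologous recombination deviated from their 12-mouse means by -0.038, 0.050, 0.23 and 0.14 on average in HFD-ED replicates 1 to 4, and from -0.12 to 0.088 in HFD-CO mice and from -0.078 to 0.0021 in control mice. For the RecQ helicases the HFD-ED mice had -0.28, 0.25, 1.13 and 0.41, the HFD-CO mice -0.34 to 0.062 and the control mice -0.49 to -0.033. Nucleotide excision repair ran the other way within a narrow range, with 0.0045, -0.036, -0.091 and -0.056 in HFD-ED mice, -0.040 to 0.028 in HFD-CO mice and 0.015 to 0.062 in control mice.

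Genes of cell division and of spleen cell types, listed by cell state or type, are given by mouse as well. HFD-ED replicates 2, 3 and 4 were the highest mice in the replication, mitosis, erythroid and neutrophil lists. They were not in the B-cell, T-cell and red pulp macrophage lists. DNA replication genes, of which 18 of 22 had a mean of 7.5 or more, deviated on average by -0.12, 0.32, 0.79 and 0.37 in HFD-ED replicates 1 to 4, by -0.33 to 0.12 in HFD-CO mice and by -0.43 to 0.055 in control mice, and HFD-ED exceeded control in 21 of 22 (median difference 0.60). Mitosis genes, 12 of 19 at 7.5 or more, deviated by -0.058, 0.36, 0.76 and 0.37 in HFD-ED mice, by -0.38 to 0.13 in HFD-CO mice and by -0.48 to 0.079 in control mice. Erythroid genes, 18 of 21 at 7.5 or more, deviated by -0.56, 0.86, 1.47 and 0.78 in HFD-ED mice, by -0.77 to 0.37 in HFD-CO mice and by -0.70 to 0.23 in control mice. Neutrophil granule genes, 9 of 10 at 7.5 or more, deviated by -0.27, 0.73, 1.92 and 0.51 in HFD-ED mice, by -0.86 to -0.30 in HFD-CO mice and by -0.67 to 0.33 in control mice. B-cell genes deviated by -0.0040, -0.12, -0.35 and -0.092 in HFD-ED mice, by -0.030 to 0.15 in HFD-CO mice and by 0.020 to 0.15 in control mice, and HFD-ED was below control in 8 of 9. T-cell genes deviated by 0.045, 0.0066, -0.39 and -0.10 in HFD-ED mice, by -0.031 to 0.13 in HFD-CO mice and by -0.054 to 0.086 in control mice, with HFD-ED below control in 7 of 9. Red pulp macrophage genes deviated by -0.16, 0.18, -0.12 and -0.11 in HFD-ED mice, by -0.16 to 0.10 in HFD-CO mice and by 0.0078 to 0.21 in control mice, with HFD-ED below control in 5 of 7. Transcripts that p53 induces after damage lay above control on HFD-ED in 5 of 11 cases (median -0.0069), at differences from -0.38 to 0.85. At an unadjusted p under 0.05 in limma 1 lay higher and 3 lower, where 5.69% and 7.55% of all genes did. Their mean deviations were 0.078, -0.018, -0.0084 and 0.0016 in HFD-ED mice, -0.043 to 0.052 in HFD-CO mice and -0.044 to 0.019 in control mice. The part of these cell types and of cell division in the values of the repair genes was not tested.

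**Figure D3:**
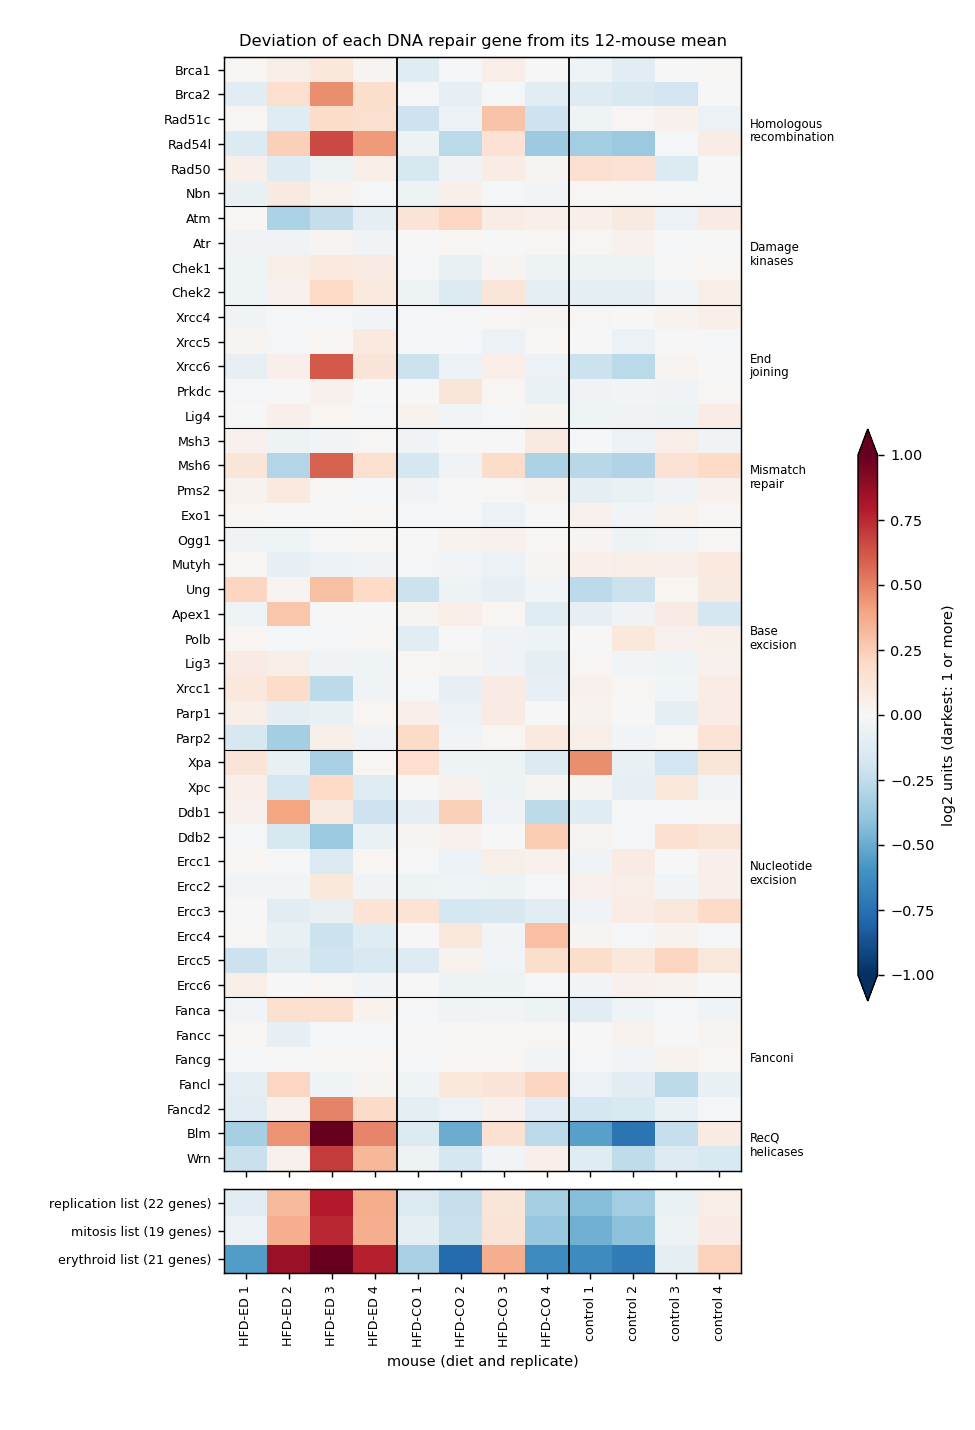
Deviation of each DNA repair gene from its 12-mouse mean in log2 units, by mouse and pathway, with the mean deviation of the replication, mitosis and erythroid gene lists in the lower panel. The other lists given by mouse are not drawn. HFD-ED replicate 3 carries the darkest red cells, in Blm, Wrn, Rad54l, Xrcc6 and Msh6, and its replication list stands at 0.79, while HFD-ED replicate 1 is pale in most genes.

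Further repair genes of the same pathways, 72 of a list of 83, lay in a similar range. No gene of them passed an adjusted p of 0.05 with limma. At an unadjusted p under 0.05, 22 of the 72 lay higher and 2 lower on HFD-ED than on control (30.6% and 2.78%), where 5.69% and 7.55% of all genes did, and 10.3% and 14.8% of genes at 7.5 or more, of which kind 40 of the 72 are. Against HFD-CO 16 lay higher and 3 lower (22.2% and 4.17%), where 6.07% and 5.82% of all genes did, and 10.9% and 10.7% of the brighter ones. Homologous recombination had 12 of 14 such genes higher than on control (median 0.090), and those with the smallest unadjusted p were Xrcc3, which acts in strand exchange, at 0.069 and Rpa3, a subunit of the single-strand binding complex, at 0.41. Beside the kinases, Tipin, which steadies the replication fork, differed by 0.91 and Topbp1, which activates Atr, by 0.11. In base excision repair Lig1, the ligase of replication and of long patches, differed by 0.78, and Parp3, a relative of Parp1, by -0.39. The Fanconi conjugating enzyme Ube2t differed by 0.21 and Fanci, the partner of Fancd2, by 0.16. Nucleotide excision repair had 5 of 10 further genes higher (median 0.050), so that the count of 9 of 10 lower among the members was not seen there. Gtf2h4, a TFIIH subunit, differed by 0.12 and Ccnh, a cyclin of the same complex, by 0.15. Of 5 further genes listed with the RecQ helicases 2 were higher (median -0.020), with Recql4 at 0.22 and Recql at -0.048. End joining had 2 of 5 higher (median -0.010) and base excision repair 4 of 13 (median -0.0074). The Fanconi pathway had 6 of 8 higher (median 0.013), the genes beside the kinases 10 of 15 (median 0.025) and mismatch repair 2 of 2 (median 0.013).

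The members with more than 1 bright probe were compared at both. Of 11 members with both of their brightest probes at 7.5 or more, 9 had differences of 1 sign at both probes between HFD-ED and control, and 9 between HFD-ED and HFD-CO, and the exceptions were Lig3 and Parp1 in each. Between HFD-CO and control 7 of 11 had 1 sign, with Atm, Ddb2, Msh6 and Parp1 as the exceptions. Blm differed by 0.75 at its next probe and Ercc5 by -0.20, against 0.90 and -0.32 at the chosen probes. Msh6 differed by 0.26 at a probe of mean 10.27, where limma's unadjusted p was 0.0035, and by 0.21 at the chosen probe of mean 10.39, where it was 0.294. From control Atm differed by -0.13 at its next probe, Ddb2 by -0.073 and Xrcc6 by 0.23. From HFD-CO the next probe of Atm differed by -0.055 (limma unadjusted p = 0.447) and that of Ddb2 by -0.057 (limma unadjusted p = 0.319), against -0.28 and -0.23 at the chosen probes. Fancl differed between HFD-CO and control by 0.13 at its next probe (limma unadjusted p = 0.139), against 0.23 at the chosen one. Its further probes of mean 7.71 and 7.57 differed by 0.037 and 0.017 (limma unadjusted p = 0.598 and 0.855), and a dim one by 0.035. Ung has 4 further probes, all dim, of which the next brightest differed between HFD-ED and control by 0.025. Another of mean 7.14 differed by -0.072 (limma unadjusted p = 0.0069), opposite to its chosen probe at 0.28 (limma unadjusted p = 0.0072). Under other processing choices the difference of Ung from control ran from 0.049 to 0.30. The dim second probe of Mutyh differed from control by 0.025 and that of Xrcc4 by 0.020, each also opposite to its chosen one.

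**Figure D4:**
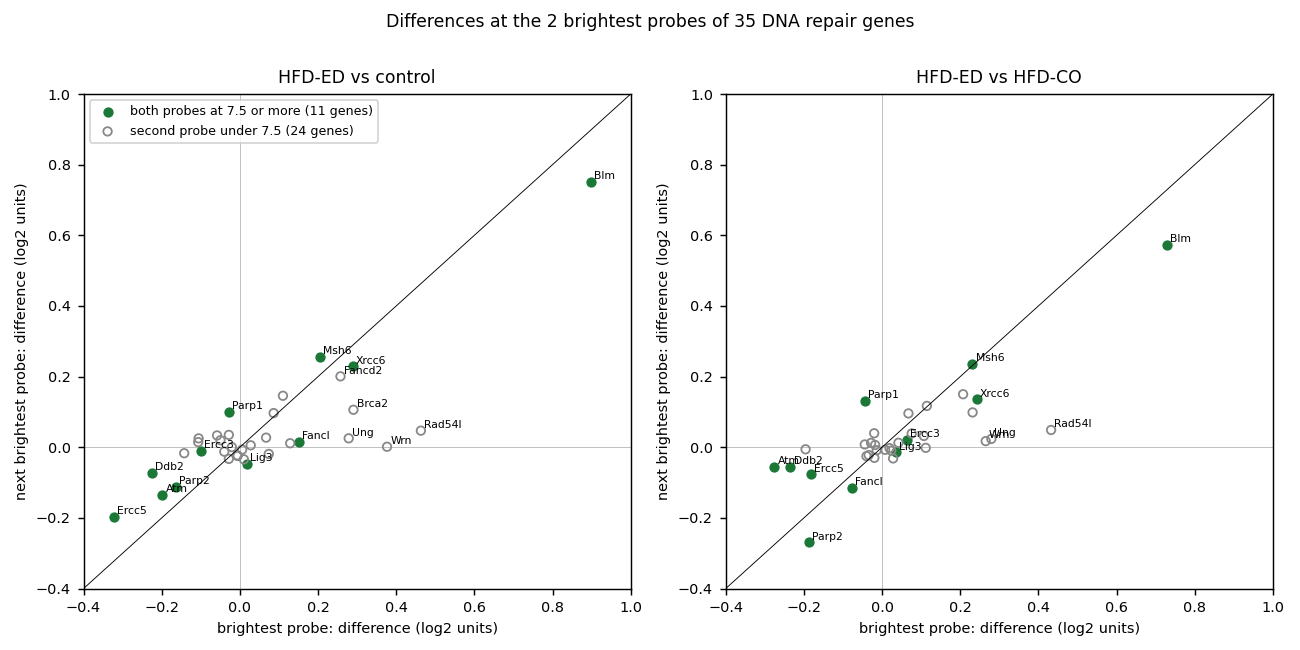
Difference of 35 DNA repair genes at the next brightest probe against that at the brightest probe, in log2 units, with control (left) and HFD-CO (right) as the diet set against HFD-ED; filled points have both probes at 7.5 or more and the line marks equal values. Blm lies at 0.90 and 0.75, Ercc5 at -0.32 and -0.20, and Parp1 has opposite signs.

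The number of mice limits the precision, and the number of members at an unadjusted p under 0.05 differed with the mice included. Without HFD-ED replicate 1, 11 members lay higher and 6 lower than on control, and 10 lay higher and 5 lower than on HFD-CO. The smallest adjusted p of a member was then 0.0578 (Mutyh, limma). Calls rose over all probes as well: 87 and 46 passed an adjusted p of 0.05 in these comparisons, against 0 and 1 with all mice. Shares of all genes at an unadjusted p under 0.05 were not computed without a mouse, so these member counts have no background beside them. Without HFD-ED replicate 3, 4 lay higher and 8 lower than on control, and 1 lay higher, Ung, and 6 lower than on HFD-CO. Members higher on HFD-ED than on control numbered 4 without control replicate 1 and 3 without control replicate 2. Against HFD-CO they numbered 2 without HFD-ED replicate 4, 3 without HFD-ED replicate 2, HFD-CO replicate 2 or HFD-CO replicate 4, and 9 without HFD-CO replicate 3. For HFD-CO against control, 2 lay higher without HFD-CO replicate 4 and 3 without control replicate 4. Ercc5 kept a difference from control between -0.34 and -0.30 without any single mouse.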

How the data were processed

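Bead intensities of 12 spleen arrays were transformed (variance stabilization) and quantile normalized by the authors with lumi (version 2.18.0), and the deposited log2-scale values, which reach 14.79, were used unchanged. No filter, detection p-value or further normalization was applied, and arrays give no read depth. Probes were named from the platform annotation: 34885 carry 1 symbol, 18 several and 10378 none. The diets were fitted together with limma (3.58.1, R 4.3.3, lmFit and eBayes, two-sided), with Benjamini-Hochberg adjustment over all 45281 probes, and the script was tested on simulated data. Members and gene lists were chosen with earlier results of these data known. Values by mouse were given for the 2 members with the smallest unadjusted p per pathway between HFD-ED and control and the 6 smallest over the comparisons, and at most 2 further genes per pathway were named. Groups come from the sample titles and each array is a separate mouse. Alternatives were the replicate block, other variance models, array weights, a filter at 7.5, other probe choices and normalizations, fits of 2 diets, other adjustments and leaving out each mouse.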

Additional observations from a re-analysis of the deposited data

Results flagged for a closer look

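In 6 of 135 sets of 4 mice, each a member in a diet, 1 mouse lay far from the other 3 by Dixon's criterion, which chance meets in about 1 of 20 sets. Atr stood at 7.14 in HFD-ED replicate 3, with the other HFD-ED mice at 7.08. Ercc2 stood at 7.46 in the same mouse, with the others at 7.32 to 7.33. Apex1 stood at 7.79 in HFD-ED replicate 2, with the others at 7.47 to 7.51. In control replicate 4, Lig4 stood at 7.28, with the others at 7.15 to 7.16, and Mutyh at 7.45, with the others at 7.40 to 7.41. Ddb1 stood at 7.64 in control replicate 1, with the others at 7.74 to 7.76. Leaving out the mouse did not bring any of these members past an adjusted p of 0.05 in limma.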

How the results depend on the processing

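No member passed an adjusted p of 0.05 in limma in any comparison under any alternative run, and the members' median difference between HFD-ED and control ran from -0.0013 to 0.016. Of 1209 values recomputed for the 17 genes given by mouse, 1188 kept their sign and 21 did not, all of them small. With the mean of all probes, Mutyh on HFD-ED against HFD-CO became 0.0057, and on HFD-CO against control Atm became -0.013 and Chek1 0.0053. With cyclic loess Ung on HFD-CO against control became 0.0040. Leaving out 1 mouse moved HFD-CO against control between -0.12 and 0.061 for Msh6, -0.057 and 0.060 for Ung, -0.027 and 0.0064 for Chek1, -0.061 and 0.11 for Rad54l, -0.050 and 0.038 for Ddb2, -0.0031 and 0.031 for Fanca, and -0.0052 and 0.097 for Xrcc6, and the cause was not tested.

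Leaving out 1 mouse gave 0 to 87 probes at an adjusted p under 0.05 between HFD-ED and control and 0 to 46 between HFD-ED and HFD-CO, the highest without HFD-ED replicate 1, and a variance trend with robust fitting gave 8 and 7. With 1 probe per gene 3 probes passed between HFD-ED and control. At an unadjusted p under 0.05, members higher on HFD-ED than on control numbered 11 with that fit or cyclic loess, against 7 as reported, and members lower numbered 3 with the filter at 7.5 and 2 with the mean of all probes, against 5. Between HFD-ED and HFD-CO 8 lay higher and 3 lower with a variance trend, and 3 higher in a fit of only these diets, against 5 and 5. Between HFD-CO and control 0 lay lower with the filter, against 3, and 0 higher with the mean of all probes, against 1. Shares of all genes at an unadjusted p under 0.05 were not computed for any alternative. Same-numbered mice had r from -0.257 to 0.371 over 12 pairs, 4 of them over 0.1, and 4 of 12 mice lay closest to their own number. Mice numbered 3 had r of 0.371 (HFD-CO and HFD-ED), 0.162 (HFD-CO and control) and 0.156 (HFD-ED and control). So few pairs cannot show whether mice of a number were handled together, and this was not tested. With the replicate number as a block 0 members and 0 probes passed, the median difference between HFD-ED and control was 0.0058, and at an unadjusted p under 0.05 11 members lay higher than on control and 10 higher than on HFD-CO. Dim probes limit what can be seen: 19 of 45 members had a mean under 7.5. There, without detection p-values, differences made small by the transformation cannot be told apart from transcripts not detected.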
